A study of Mus musculus with 28 samples.

Results

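The genes described here are 10 ligands of the Tgfb superfamily: Bmp2, Bmp3, Bmp4, Bmp7, Bmp8b, Tgfb1, Tgfb2, Tgfb3, Inhba and Gdf15. They were found by gene symbol, and all 10 were listed in each of 3 expression tables, among 29413 genes in the BMP table and 55416 genes in each of the TGFb and mesenchymal tables. The question was how organoids given a single recombinant ligand changed the transcripts of their own ligands, and which ligands duodenal mesenchymal cells expressed. Recombinant protein carries no transcript, so every value below is RNA made by the cells.

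Most ligands of this superfamily are secreted dimers that bind paired serine/threonine kinase receptors, which phosphorylate Smad proteins that enter the nucleus. BMP ligands act mainly through one branch of Smads, and the Tgfb and activin ligands through the other. In the small intestine, mesenchymal cells beneath the epithelium are a known source of BMPs, BMP signalling is highest towards the villus tip, and crypts are kept low in it by secreted antagonists.

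Messenger RNA was sequenced in 28 samples. Of these, 26 were small-intestinal organoids from WT (C57BL/6) mice, which are epithelial cultures grown from crypts in a gel. All organoids had been started in ENR medium without any added BMP or Tgfb, and those treated received 1 recombinant protein at 500 ng/ml for 24 h. The BMP table held 4 untreated controls (replicates II, III, IV and VI), 4 samples with BMP2 (the same numbers), 3 with BMP3 (II, III and IV) and 3 each with BMP4, BMP5 and BMP7 (II, III and VI). The TGFb table held 3 untreated controls and 3 samples with Tgfb, whose isoform the labels do not name. The mesenchymal table held 1 sample, titled FRESH, of Pdgfra-positive cells from the duodenum of a PdgfraH2BeGFP mouse and 1 sample of such cells after immortalisation with the HPV16-E6 gene, puromycin selection and sorting on eGFP, titled HIGH. These mice carry an eGFP reporter at the Pdgfra gene. The labels do not say whether replicates were separate cultures or animals, so the p-values below measure the spread between these samples, which may be technical. The tables had been scaled separately, and each test stayed within a table.

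Several facts of the series bear on what follows. Reads recovered from the deposited values of the BMP table summed to 21357834 to 24783053 a library over the listed genes. These sums are approximate, since large values are known to 3 digits. A normalized count of 0.826 to 1.28 stands for 1 read. Depth in the TPM tables is unknown. The BMP and Tgfb targets Id1, Smad6 and Smad7 were higher with BMP2, BMP4, BMP5, BMP7 and Tgfb (3 of 3 each by limma) and not called with BMP3 (0 of 3). In the TGFb table Smad6 passed the filter on low values only through the Tgfb samples, without which its mean was 0.562 TPM. It had to be high there, so its call with Tgfb is no check of the labels. The epithelial markers Epcam, Cdh1, Vil1, Krt8, Krt18 and Krt20 were present in all 26 organoid samples, and 6 of 6 were called higher with BMP2, BMP4, BMP5, BMP7 and Tgfb (median log2 changes 2.59, 1.22, 1.18, 1.31 and 1.94) and 0 with BMP3. Their summed normalized counts were 96100 to 106820 in controls, 584000 to 748800 with BMP2, 240800 to 345900 with BMP4, 175120 to 292600 with BMP5 and 215710 to 308100 with BMP7. Of 7 mesenchymal markers, 0 passed the filter on low values in either organoid table, and Dcn and Lum were not listed in the BMP table. The 4 crypt stem markers fell with BMP2, BMP4 and Tgfb (4 of 4 each), with BMP7 (3 of 4) and with BMP5 (1 of 4). Their summed normalized counts were 95738 to 120015 in controls, 135 to 678 with BMP2, 1779 to 3475 with BMP4, 24949 to 72914 with BMP5 and 21589 to 25853 with BMP7. Of the 4 enterocyte markers, 4 were higher with BMP4 (median 2.60), 1 was higher and 2 lower with BMP2, and 4 were lower with BMP2 than with BMP4 (median -4.18) and higher with BMP4 than with BMP7 (median 3.30). Of the 3 goblet markers 2 were higher with BMP4, and 3 were higher with BMP4 than with BMP2 or BMP7. The 3 Paneth markers were lower with BMP2 (median -1.06). In bulk samples, fewer cells of a type and less RNA per cell cannot be told apart, and the part of cell composition in the results below was not tested. The authors' scaling left BMP2 and BMP4 samples with larger totals. Rescaling every sample to the same total moved the median log2 change of all genes by -0.46 with BMP2 and -0.40 with BMP4, and the share of calls that were higher from 48.9% to 31.8% and from 51.7% to 31.1%. Quantile normalization moved that median by 0.18 with BMP2 and 0.11 with BMP4, and lowered the share of calls that were higher from 62.5% to 49.8% with BMP5 and from 59.4% to 48.0% with BMP7.

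Of the 10 ligands, 8 passed a filter at a mean of 10 normalized counts in the BMP table. Tgfb2 and Tgfb3 did not. Bmp4 and Inhba passed only through the BMP2 samples, without which their means were 4.85 and 8.53 normalized counts, so they had to be high there and are left out of the counts that follow. The other 6 passed whichever group was left out. Calls below rest on limma with Benjamini-Hochberg adjustment over all genes tested, at a threshold of 0.05. With BMP2, 4 of these 6 rose and 2 fell, where 36.8% of all 14746 genes tested were called higher and 38.4% lower. With BMP5, 2 rose and 1 fell, against 16.5% higher and 9.87% lower among all genes. With BMP7, 2 rose and 2 fell, against 19.2% and 13.2%. With BMP4, 2 rose and 2 fell, against 33.7% and 31.4%. With BMP3, 0 of the 6 were called, as were 0% of all genes. The median log2 change over the 6 ligands was 1.24 with BMP2, 0.17 with BMP5, -0.08 with BMP7, -0.10 with BMP4 and 0.09 with BMP3, where the medians over all genes were -0.03, -0.03, -0.05, 0.04 and 0.01. These comparisons use the same control samples.

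**Figure D1:**
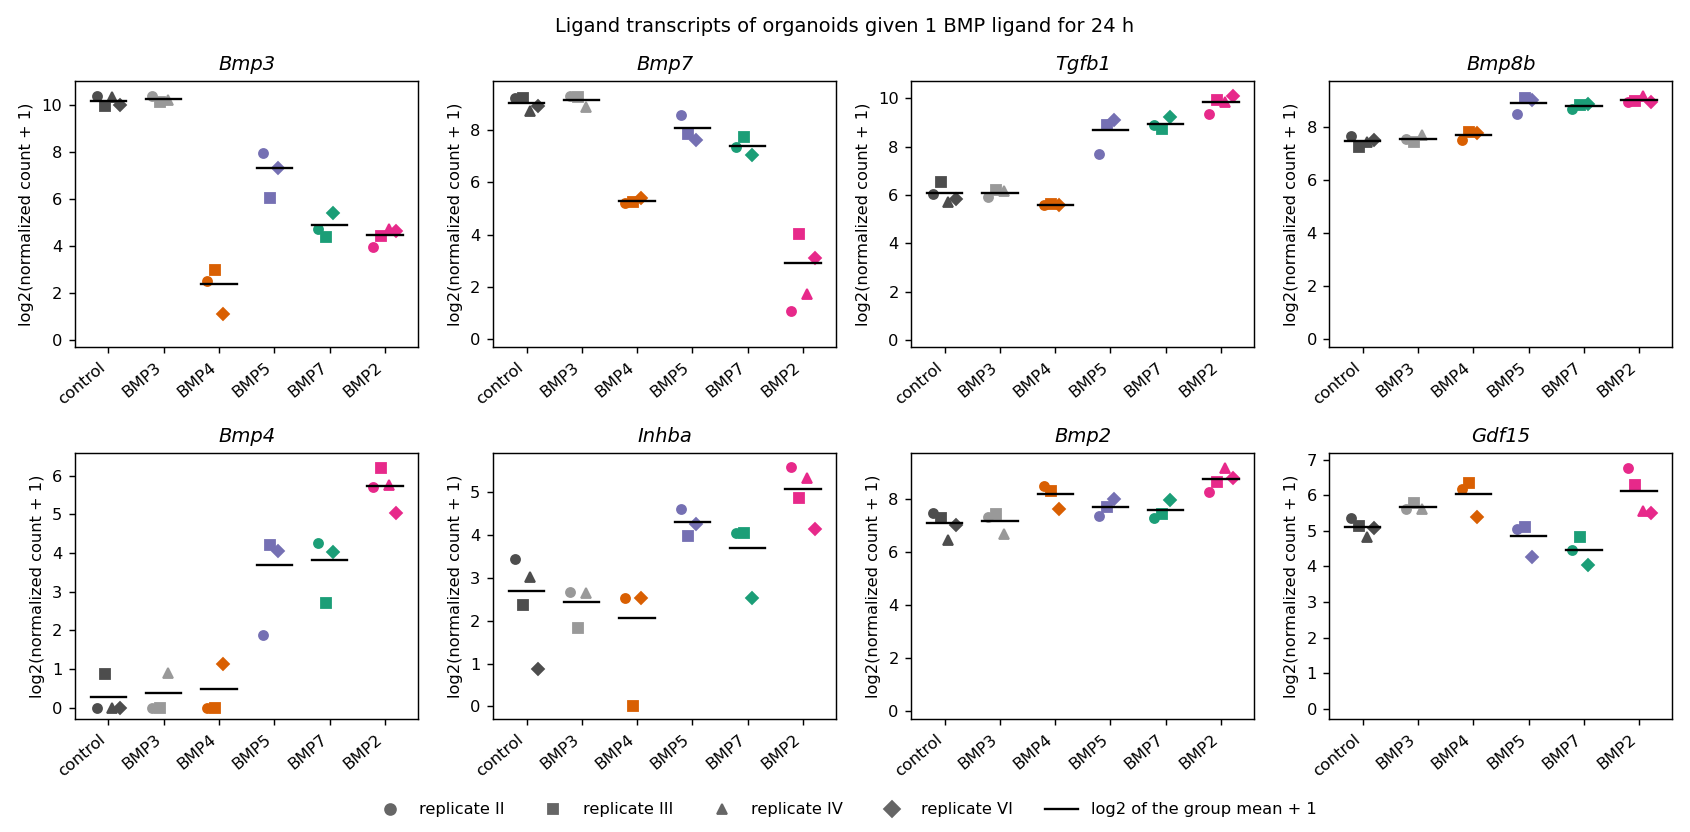
Normalized counts, as log2(value + 1), of the 8 ligand transcripts that passed the filter, by added ligand; each point is a sample, its shape gives the replicate number, and the line is the group mean. Bmp3 and Bmp7 lie highest in control and BMP3 samples, while Tgfb1, Bmp8b and Bmp4 lie highest in the BMP5, BMP7 and BMP2 samples.

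Tgfb1, Bmp8b, Bmp4 and Bmp2 had higher means with BMP2, BMP5, BMP7 and Tgfb than any sample of the controls of the same table. The 250 bases that precede the start sites of Tgfb1, Bmp8b and Bmp4 are shown because Smad proteins bind short motifs in promoters. They are the RefSeq windows on the GRCm38.p6 build, on the gene's strand, at chr7:25686752-25687001 (plus strand) for Tgfb1, chr4:123104911-123105160 (plus strand) for Bmp8b and chr14:46390670-46390919 (minus strand) for Bmp4. Windows were found for 6 of the 10 ligands, and Bmp2 was not among them. Capitals mark a match to the CAGA box, searched as CAGAC on both strands.
Tgfb1: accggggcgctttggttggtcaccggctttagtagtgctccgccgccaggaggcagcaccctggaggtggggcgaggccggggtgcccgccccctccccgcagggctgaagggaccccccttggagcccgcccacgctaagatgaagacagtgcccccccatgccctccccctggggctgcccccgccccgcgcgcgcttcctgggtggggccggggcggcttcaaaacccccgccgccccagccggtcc
Bmp8b: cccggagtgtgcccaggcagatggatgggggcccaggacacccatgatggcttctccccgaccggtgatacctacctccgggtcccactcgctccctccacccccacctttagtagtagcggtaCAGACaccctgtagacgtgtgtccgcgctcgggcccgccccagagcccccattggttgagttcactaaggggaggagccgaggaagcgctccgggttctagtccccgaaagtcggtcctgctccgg
Bmp4: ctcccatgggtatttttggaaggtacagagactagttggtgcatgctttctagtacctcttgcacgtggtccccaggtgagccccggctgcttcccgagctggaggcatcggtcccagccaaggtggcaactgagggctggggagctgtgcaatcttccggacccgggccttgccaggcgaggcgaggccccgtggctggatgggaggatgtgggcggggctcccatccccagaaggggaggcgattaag
The Bmp8b window held 1 CAGA box match, and the Tgfb1 and Bmp4 windows held 0. The GC-rich Smad motif GGCGCC and the palindromic Smad motif GTCTAGAC, also searched on both strands, had 0 matches in the 3 windows. Of 32851 windows of the same length in the table, 42.2% held a CAGA box match, 9.59% the GC-rich motif and 0.167% the palindrome. A match describes letters in the window and is not evidence of binding. The Tgfb1 window was 75.2% G or C, the Bmp8b window 65.2% and the Bmp4 window 63.2%.

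Of the 10 ligands, the one with the highest TPM in untreated organoids was Bmp3, whose protein is known as an atypical BMP that can oppose other BMPs. Its normalized counts were 1330, 1000, 1290 and 1020 in controls and 1360, 1130 and 1190 with BMP3. They were 14.8, 20.5, 25.9 and 24.0 with BMP2, and 4.74, 6.84 and 1.20 with BMP4. With BMP5 they were 251, 65.8 and 159, and with BMP7 25.4, 20 and 41.4. The samples with BMP2, BMP4, BMP5 or BMP7 all lay below all controls, and those with BMP4 lay below all others. The log2 change was -7.96 with BMP4 (SE 0.41, limma adjusted p = 2.87e-11), -5.72 with BMP2 (SE 0.38, 1.04e-10), -5.33 with BMP7 (SE 0.41, 4.37e-08) and -3.05 with BMP5 (SE 0.41, 2.17e-05). With BMP3 itself it was 0.09 (95% interval -0.76 to 0.94, limma adjusted p = 1).

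The loss of Bmp3 differed in size between the ligands. It was deeper with BMP4 than with BMP2 (log2 difference BMP2 against BMP4 2.24, limma adjusted p = 8.33e-05) and than with BMP7 (BMP4 against BMP7 -2.63, limma adjusted p = 4.14e-05). BMP2 and BMP7 samples overlapped, with a difference of -0.39 (95% interval -1.24 to 0.46, limma adjusted p = 0.416). BMP5 and BMP7 samples did not overlap, and the difference was 2.28 (95% interval 1.37 to 3.19), yet it missed the threshold after adjustment (limma adjusted p = 0.113). It passed without BMP5 replicate III (limma adjusted p = 0.00793) and in the count tests (edgeR adjusted p = 0.0333 with TMM, DESeq2 adjusted p = 1.95e-07).

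Bmp7, which encodes a BMP widely made by epithelia, was the other ligand that untreated organoids held at a high level and then lost. Controls held 591, 592, 422 and 487 normalized counts of it, and BMP3 samples 633, 611 and 463. With BMP2 they were 1.14, 15.3, 2.35 and 7.59, and with BMP4 35.6, 36.5 and 40.7. With BMP5 they were 374, 231 and 193, and with BMP7 162, 209 and 130. The samples with BMP2, BMP4, BMP5 or BMP7 all lay below the lowest control, the BMP2 samples lowest of all. On the log2 scale Bmp7 changed by -6.53 with BMP2 (SE 0.43, limma adjusted p = 9.38e-11), -3.75 with BMP4 (SE 0.46, 1.01e-06) and -1.65 with BMP7 (SE 0.46, 0.01). With BMP5 it was -1.02 and missed the threshold (limma adjusted p = 0.115), which the count tests put past it (edgeR adjusted p = 0.00996 with TMM, DESeq2 adjusted p = 0.000605).

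For Bmp7 the order of BMP2 and BMP4 was the opposite of that for Bmp3. The log2 difference of Bmp7 between BMP2 and BMP4 was -2.78 (SE 0.46, limma adjusted p = 3.12e-05), so the BMP2 samples were lower, whereas Bmp3 was lower in the BMP4 samples. Bmp7 was also lower with BMP2 than with BMP7 (-4.87, limma adjusted p = 5.05e-08) and with BMP4 than with BMP7 (-2.10, limma adjusted p = 0.00121). The BMP5 and BMP7 samples overlapped for Bmp7, with a difference of 0.64 (95% interval -0.40 to 1.67, limma adjusted p = 1). Whether the reversal between the 2 genes is larger than error was not tested as an interaction.

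Tgfb1, the Tgfb isoform best known for effects on epithelial and immune cells, rose with BMP2, BMP5 and BMP7. Its normalized counts were 64.8, 91.3, 50.6 and 56.2 in controls, 59.6, 72.7 and 70.0 with BMP3, and 47.4, 47.9 and 46.7 with BMP4. They were 645, 986, 920 and 1100 with BMP2, 205, 481 and 548 with BMP5, and 473, 417 and 595 with BMP7. The samples with BMP2, BMP5 or BMP7 all lay above every control, and the BMP4 samples lay just below the lowest control. The log2 change was 3.78 with BMP2 (SE 0.25, limma adjusted p = 1.26e-10), 2.91 with BMP7 (SE 0.27, 3.41e-07) and 2.54 with BMP5 (SE 0.27, 2.19e-06). With BMP4 it was -0.43 (limma adjusted p = 0.178), and -0.82 past the threshold when samples were rescaled to the same total (limma adjusted p = 0.0111). BMP2 samples held more Tgfb1 than BMP7 samples (0.87, limma adjusted p = 0.00977), a difference that was 0.48 and missed the threshold at the same total (limma adjusted p = 0.124).

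Bmp8b, a BMP known from the germ line and brown fat, followed the same ligands with a smaller change. Normalized counts stood at 201, 150, 174 and 181 in controls, 187, 173 and 205 with BMP3, and 180, 222 and 221 with BMP4. They were 488, 509, 582 and 497 with BMP2, 364, 548 and 525 with BMP5, and 409, 453 and 465 with BMP7. The BMP2, BMP5 and BMP7 samples all lay above the controls, and the BMP5 samples overlapped both of the others, while the BMP3 and BMP4 samples overlapped the controls. By log2 change it rose by 1.55 with BMP2 (SE 0.13, limma adjusted p = 2.78e-09), 1.42 with BMP5 (SE 0.14, 9.45e-07) and 1.33 with BMP7 (SE 0.14, 1.26e-06). With BMP4 it was 0.23 (limma adjusted p = 0.151), a value that changed sign to -0.16 at the same total and passed the threshold at 0.51 under quantile normalization (limma adjusted p = 0.00437). BMP2 and BMP7 samples differed by 0.23 (95% interval -0.07 to 0.52, limma adjusted p = 0.163), also with a change of sign at the same total. Bmp8b and its neighbour Bmp8a are closely similar copies, so the authors' counting could have split reads between them and both values are uncertain.

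Bmp4, a main mesenchymal BMP of the intestine, was near the limit of detection in untreated organoids. The 4 controls held 1 read in all, with 0, 0.830, 0 and 0 normalized counts, and the BMP3 (0, 0 and 0.875) and BMP4 (0, 0 and 1.20) samples were as low. With BMP2 the values were 51.1, 72.9, 52.9 and 31.6, with BMP5 2.69, 17.6 and 15.5, and with BMP7 18.1, 5.47 and 15.4. The BMP2 samples lay above all BMP5 and BMP7 samples, and these lay above all controls. Against a floor of 3 reads per library, the mean with BMP2 was at least 20.3-fold higher than in controls, with BMP7 at least 5.05-fold and with BMP5 at least 4.64-fold. Single samples were lower: the BMP5 sample at 2.69 held 3 reads, the floor itself, and the BMP7 sample at 5.47 held 6. Since Bmp4 passed the filter through the BMP2 samples, its tests are given with no filter, where limma gave adjusted p = 1.74e-08 with BMP2, 0.000181 with BMP7 and 0.000575 with BMP5. The log2 difference between BMP2 and BMP7 samples was 2.01 (limma adjusted p = 0.00807 with no filter), and it missed the threshold with the filter and a pseudocount of 0.1 (limma adjusted p = 0.129).

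Markers of mesenchymal cells were read beside Bmp4, since such cells make it. Of 7 markers, the 5 listed in the BMP table summed to 5.33 to 39.9 normalized counts in controls and 33.3 to 55.4 with BMP2. The sums were 13.4 to 25.5 with BMP5 and 19.2 to 22.1 with BMP7. Pdgfra was 0 to 1.78 in controls and 12.8 to 37.5 with BMP2, whereas Pdgfrb was 2.66 to 14.2 in controls and 0 to 1.27 with BMP2. Col3a1 was at 0 in all controls, BMP5 and BMP7 samples and at most 1.18 with BMP2. Col1a1 and Col1a2 make up the rest of these sums, and Dcn and Lum were not listed in that table. In the fresh mesenchymal cells Bmp4 stood at 151 TPM. Of the 7 markers, Col1a1 (5543 TPM), Col3a1 (3733 TPM), Dcn (3201 TPM), Col1a2 (2816 TPM) and Lum (251 TPM) stood above it. Pdgfrb (144 TPM) and Pdgfra (37.5 TPM) stood below it. The part of such cells in the organoid values of Bmp4 was not tested.

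Inhba, which encodes the beta A subunit of activin A, was low throughout. Its normalized counts were 9.77, 4.15, 7.10 and 0.826 in controls, 5.34, 2.53 and 5.25 with BMP3, and 4.74, 0 and 4.79 with BMP4. They were 46.5, 28.1, 38.8 and 16.5 with BMP2, 23.3, 14.8 and 18.2 with BMP5, and 15.4, 15.5 and 4.81 with BMP7. The BMP2 and BMP5 samples lay above all controls, while 1 of the BMP7 samples lay within them. Inhba too is given with no filter, since it passed the filter through the BMP2 samples. Its log2 change was then 2.55 with BMP2 (limma adjusted p = 0.00140). The values with BMP5 (1.86, limma adjusted p = 0.0734), BMP7 (1.12, limma adjusted p = 0.308) and BMP4 (-0.74, limma adjusted p = 0.454) did not pass. With the filter the BMP5 value passed (limma adjusted p = 0.0414), a call lost without control III (0.0764), control VI (0.137) or any one of BMP5 II (0.103), III (0.0785) and VI (0.105). BMP2 samples held more Inhba than BMP4 samples (3.28, limma adjusted p = 0.000323 with no filter), a difference of 2.44 without BMP4 replicate III.

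Bmp2 was called higher with the protein it encodes and with BMP4. In normalized counts it stood at 178, 153, 86.0 and 130 in controls, 158, 174 and 101 with BMP3, and 309, 399, 578 and 447 with BMP2. With BMP4 they were 356, 316 and 194, with BMP5 164, 204 and 255, and with BMP7 155, 174 and 248. The BMP2 and BMP4 samples lay above all controls, and the BMP5 and BMP7 samples overlapped them. It changed by 1.67 on the log2 scale with BMP2 (SE 0.26, limma adjusted p = 1.10e-05) and 1.08 with BMP4 (SE 0.28, 0.00248). It was 0.63 with BMP5 (limma adjusted p = 0.112) and 0.51 with BMP7 (limma adjusted p = 0.176). Bmp2 transcript was higher with BMP2 than with BMP7 (1.16, limma adjusted p = 0.00148), and its difference between BMP2 and BMP4 missed the threshold (0.59, limma adjusted p = 0.0700). That last difference passed without BMP2 replicate II (limma adjusted p = 0.0323) or BMP4 replicate II (limma adjusted p = 0.0427).

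Gdf15, a distant member of the superfamily induced by many kinds of cell stress, gave the smallest called changes against control in the BMP table. Its normalized counts were 40, 34, 27.5 and 33 in controls, 109, 76.7, 45.9 and 44.3 with BMP2, and 71.1, 81.0 and 40.7 with BMP4. With BMP3 they were 48.0, 54.1 and 48.1, with BMP5 32.3, 33.3 and 18.2, and with BMP7 20.9, 27.3 and 15.4. The BMP2, BMP3 and BMP4 samples lay above all controls, and the BMP7 samples lay below them. The log2 change was 0.93 with BMP2 (SE 0.30, limma adjusted p = 0.00867) and 0.87 with BMP4 (SE 0.32, 0.0235), and 0.57 with BMP3 (limma adjusted p = 1). Both calls were lost at the same total, where each change was 0.48 (limma adjusted p = 0.167 and 0.216). The BMP4 call was also lost without control IV (limma adjusted p = 0.0590), BMP4 II (0.0831) or BMP4 III (0.117). With BMP7 the value was -0.66 (limma adjusted p = 0.121), and -0.74 with the replicate number as a block (limma adjusted p = 0.0127). Gdf15 was higher with BMP2 than with BMP7 (1.59, limma adjusted p = 0.000286) and with BMP4 than with BMP7 (1.53, limma adjusted p = 0.000791).

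Tgfb2 and Tgfb3, the other Tgfb isoforms, stayed near the floor in organoids and were not tested. Tgfb2 was 4.44 to 5.81 normalized counts in controls and 0 to 1.20 with BMP4. Tgfb3 was 0 to 1.77 in controls and 0 to 5.88 with BMP2. In the TGFb table Tgfb2 was at most 0.0839 TPM and Tgfb3 at most 0.0799 TPM over the 6 samples.

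**Figure D2:**
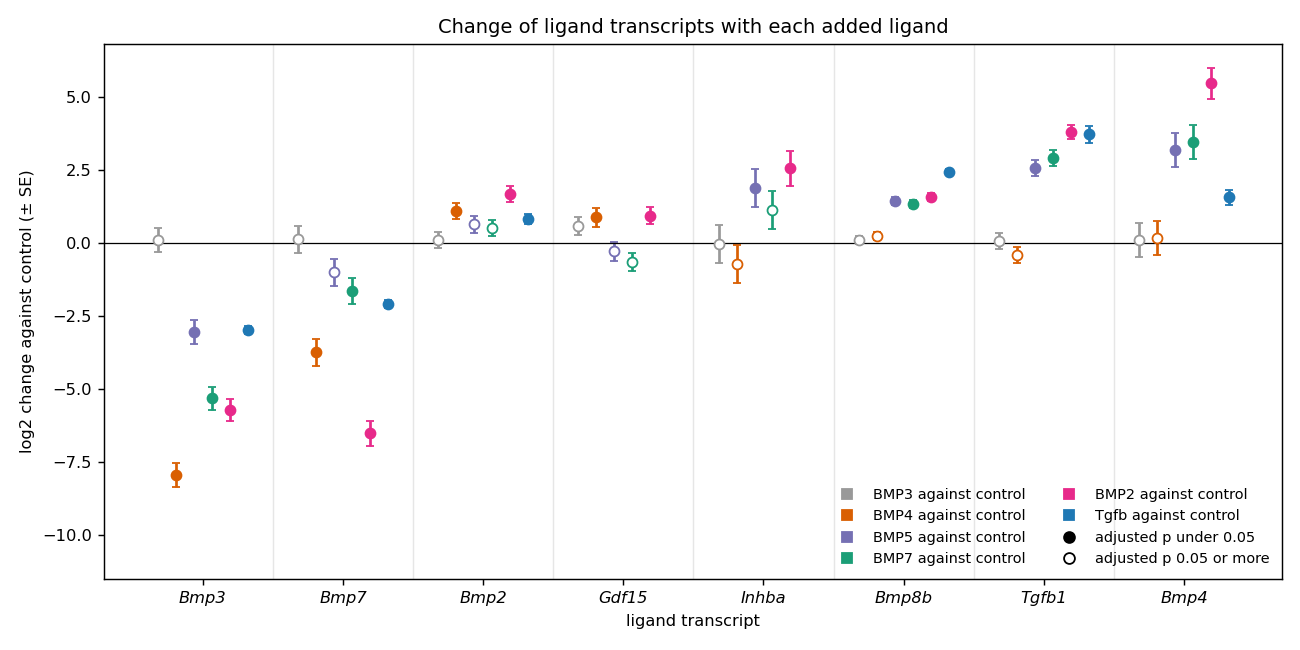
Log2 change against the controls of the same table, with its standard error, for each ligand transcript tested and each added ligand; filled points had an adjusted p under 0.05 and open points did not. Values range from -7.96 for Bmp3 with BMP4 to 5.45 for Bmp4 with BMP2, and the BMP3 points lie between -0.04 and 0.57. Bmp4 and Inhba in the BMP table, and Bmp3, Bmp4 and Bmp8b in the TGFb table, passed the filter only through the group where they were highest. The Tgfb changes are of log2(TPM + 1) and the others of log2(normalized count + 1), so their sizes cannot be compared.

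In direct contrasts the same 6 ligands were counted, without Bmp4 and Inhba. Between BMP4 and BMP7, 1 of the 6 was higher with BMP4 (Gdf15) and 4 were lower, where 28.4% of all genes were higher and 31.4% lower. Tgfb1 was lower by -3.34 (limma adjusted p = 2.33e-08), and Bmp8b by -1.09 (limma adjusted p = 5.08e-06). With no filter Bmp4 was lower by -3.28 (limma adjusted p = 0.000192) and Inhba by -1.85 (limma adjusted p = 0.0485). The Inhba call, made with the filter at an adjusted p of 0.0280, was lost there without BMP4 III (-1.01, limma adjusted p = 0.203), BMP7 II (limma adjusted p = 0.0954) or BMP7 III (limma adjusted p = 0.0940). Quantile normalization (limma adjusted p = 0.123) and a fit of the 2 groups alone (limma adjusted p = 0.0820) also lost it. Between BMP2 and BMP4, 3 of the 6 were higher with BMP2 and 1 was lower (Bmp7), against 33.4% of all genes each way. The 3 were Bmp3, Tgfb1 (4.21, limma adjusted p = 1.66e-10) and Bmp8b (1.32, limma adjusted p = 1.26e-07). Between BMP2 and BMP7, 3 were higher and 1 was lower with BMP2, against 31.4% each way. Inhba differed by 1.43 there (limma adjusted p = 0.107 with no filter).

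Between BMP5 and BMP7, 0 of 8 ligands were called by limma, and 0.00678% of all genes were called each way. At an unadjusted p under 0.05 there was 1, Bmp3, which edgeR and DESeq2 called. The 95% intervals of the log2 differences ran from -0.22 to 0.41 for Bmp8b and from -0.98 to 0.24 for Tgfb1, and from -1.57 to 1.01 for Bmp4. BMP5 replicate II lay nearest to the controls of the 3 BMP5 samples for Bmp3, Bmp7, Tgfb1, Bmp8b, Bmp4 and Bmp2. Without it the log2 change of Bmp4 with BMP5 was 3.91 in place of 3.16. The F-test over the 5 added BMP ligands called the 6 ligands that passed the filter whichever group was left out, as it did 84.1% of all genes.

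With BMP3, 0 of the 8 ligands were called, 0 had an unadjusted p under 0.05, and edgeR and DESeq2 called 0 of them. The 95% intervals of the log2 changes reached from -0.20 to 0.39 for Bmp8b, the narrowest, and from -1.41 to 1.32 for Inhba, the widest.

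In the TGFb table, 6 of the 10 ligands passed a filter at a mean of 1 TPM, and 3 of those passed only through the group where they were highest: Bmp4 and Bmp8b through the Tgfb samples and Bmp3 through the controls. Of the other 3, 2 rose with Tgfb (Tgfb1 and Bmp2) and 1 fell (Bmp7), where 27.4% of all 12959 genes tested were higher and 29.3% lower. The tests of Bmp4, Bmp8b and Bmp3 are given with no filter. Tgfb1 stood at 3.21, 0.940 and 1.33 TPM in controls and 32.7, 32.4 and 36.4 TPM with Tgfb, a log2 change of 3.70 (SE 0.28, limma adjusted p = 9.30e-05). Bmp8b stood at 0.835, 0.820 and 1.13 TPM in controls and 8.96, 9.00 and 9.82 TPM with Tgfb, a change of 2.41 (limma adjusted p = 0.000135 with no filter). For neither gene did the groups overlap. Bmp4 was listed at 0 in the 3 controls and stood at 1.40, 1.66 and 2.95 TPM with Tgfb (limma adjusted p = 0.00250 with no filter). Bmp2 rose from 1.78, 1.83 and 1.86 TPM to 3.35, 3.59 and 5.12 TPM, a change of 0.81 (SE 0.16, limma adjusted p = 0.00559).

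The ligands that fell with Tgfb were again Bmp3 and Bmp7. Bmp3 stood at 13.4, 13.3 and 13.1 TPM in controls and at 0.566, 0.755 and 1.11 TPM with Tgfb, a log2 change of -2.99 (limma adjusted p = 0.000103 with no filter). Bmp7 stood at 8.49, 11.0 and 9.77 TPM in controls and 1.56, 1.82 and 1.19 TPM with Tgfb, a change of -2.09 (SE 0.14, limma adjusted p = 6.15e-05). The 2 groups were far apart for both genes. Gdf15 was below the filter, at 1.02, 0.680 and 1.41 TPM in controls and 0.450, 0.636 and 0.133 TPM with Tgfb, and Inhba was at most 0.0167 TPM. The summed mesenchymal markers were 0.260 to 0.279 TPM in controls and higher, at 0.537 to 0.834 TPM, with Tgfb. Col1a2, Col3a1, Dcn and Lum were listed at 0 in all 6 samples, so these sums came from Pdgfra, Pdgfrb and Col1a1. The summed crypt stem markers were 2434 to 2881 TPM in controls and 138 to 143 TPM with Tgfb.

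TPM is scaled by transcript length, so it also gives the order of the ligands within a sample. That these values are TPM was judged from the column sums alone, and the order and shares rest on it. In untreated organoids Bmp3 (mean 13.2 TPM) and Bmp7 (9.75 TPM) together led, with 46.2% and 34.0% of the summed 28.7 TPM of the 10 ligands, ahead of Bmp2 (1.82 TPM), Tgfb1 (1.82 TPM), Gdf15 (1.04 TPM) and Bmp8b (0.928 TPM). With Tgfb the order turned: Tgfb1 (33.8 TPM) made up 65.1% of a sum of 52.0 TPM and Bmp8b (9.26 TPM) 17.8%, and Bmp7 (1.52 TPM) and Bmp3 (0.809 TPM) came after Bmp2 (4.02 TPM) and Bmp4 (2.01 TPM).

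**Figure D3:**
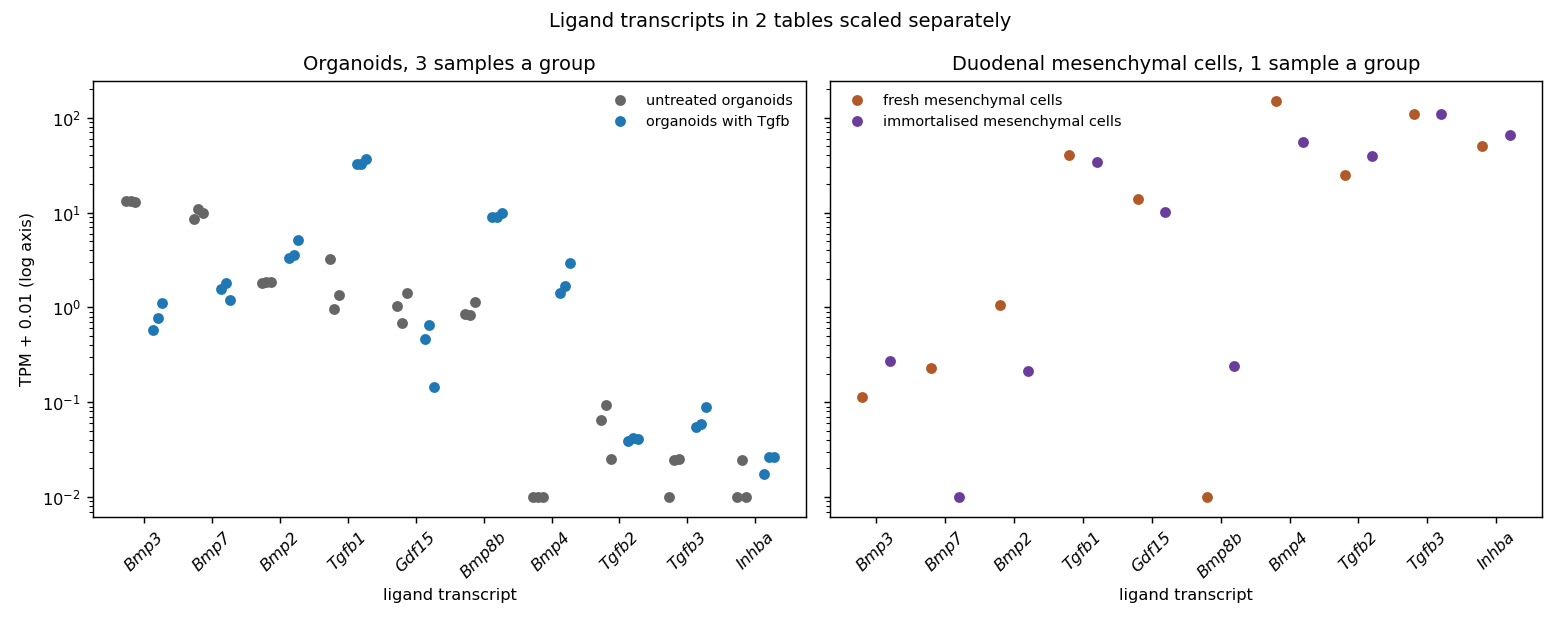
TPM + 0.01 on a log axis of the 10 ligand transcripts in organoids with and without Tgfb (left, 3 samples a group) and in fresh and immortalised duodenal mesenchymal cells (right, 1 sample each); each point is a sample. Bmp3 and Bmp7 lead in untreated organoids, Tgfb1 and Bmp8b with Tgfb, and Bmp4, Tgfb3 and Inhba in mesenchymal cells.

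In mesenchymal cells the leading ligands were Bmp4, Tgfb3 and Inhba, which were near the floor in untreated organoids. With 1 sample each there is no replicate check and no test, and levels are set beside those of organoids across tables scaled separately. In fresh cells Bmp4 led at 151 TPM, which was 38.6% of the summed 390.7 TPM of the 10 ligands. Tgfb3 followed at 110 TPM, Inhba at 50.0 TPM, Tgfb1 at 40.3 TPM, Tgfb2 at 24.7 TPM and Gdf15 at 13.8 TPM. The 2 leading ligands of untreated organoids were near the floor there, with Bmp7 at 0.219 TPM and Bmp3 at 0.103 TPM. Bmp8b was listed at 0, and Bmp2 stood at 1.05 TPM. Tgfb1 and Gdf15, at 1.82 and 1.04 TPM in untreated organoids, stood higher in the fresh cells. Untreated organoids held at most 0.0839 TPM of Tgfb2, 0.0154 TPM of Tgfb3 and 0.0147 TPM of Inhba.

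In the immortalised cells Bmp4 stood at 55.0 TPM, 2.74-fold lower than in the fresh sample, and it was the 1 ligand past 2-fold among the 6 with a mean of at least 1 TPM that entered that count. Of all 13652 genes counted, 6.26% were at least 2-fold higher and 10.7% at least 2-fold lower. Tgfb3 was at 110 TPM in both samples, Inhba at 66.0 TPM, Tgfb2 at 39.2 TPM, Tgfb1 at 34.4 TPM and Gdf15 at 10.2 TPM, so that Tgfb3 and Inhba came before Bmp4 in the order. Other cell markers moved between the same 2 samples. The mesenchymal markers summed to 15726 TPM in the fresh and 3560 TPM in the immortalised sample, the immune markers to 126 and 10.8 TPM (mostly Lyz2), and the endothelial markers to 16.3 and 1.28 TPM, while Pdgfra was 37.5 and 113 TPM. The 6 epithelial markers summed to 28.8 and 0.118 TPM, with Krt8 at 9.10 and 0 TPM, Krt18 at 19.2 and 0.0868 TPM, Epcam at 0.161 and 0 TPM, and Cdh1 and Vil1 listed at 0 in both. The part of other cells in the levels was not tested.

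The other 23 ligands of the superfamily were few in organoids. Of these, 14 were listed in the BMP table and 4 tested (Bmp8a, Gdf9, Gdf11 and Lefty1). Gdf9, best known from the oocyte, was 22.2, 20.7, 13.3 and 26.4 normalized counts in controls and 109, 143 and 94.5 with BMP4, a log2 change of 2.45 (SE 0.36, limma adjusted p = 8.22e-06). It was higher in the BMP4 samples than in any other group. With BMP7 it was 3.63, 10.9 and 14.4, a change of -1.15 (limma adjusted p = 0.0190). Gdf11, a relative of myostatin, fell with BMP4 (-1.89, limma adjusted p = 3.26e-05) and BMP2 (-1.08, limma adjusted p = 0.00242). Bmp8a, the copy of Bmp8b, rose with BMP2 (1.43, limma adjusted p = 0.000900) and BMP7 (1.09, limma adjusted p = 0.0298). With BMP7, both calls were lost without BMP7 replicate II, that of Bmp8a also without control II, control III or BMP7 VI, and that of Gdf9 also without control VI. The Bmp8a call was also lost with no filter (limma adjusted p = 0.0647), and the Gdf9 call in a fit of the 2 groups alone (0.0739). In direct contrasts Gdf9 was higher with BMP4 than with BMP7 (3.60, limma adjusted p = 2.43e-07) and lower with BMP2 than with BMP4 (-2.26, limma adjusted p = 1.85e-05). Of the 4, 1 rose and 1 fell with each of BMP2, BMP4 and BMP7, where the shares of all genes were 36.8% and 38.4%, 33.7% and 31.4%, and 19.2% and 13.2%. With BMP3 and BMP5 0 of the 4 passed, though Bmp8a passed with BMP5 when the replicate number was a block (limma adjusted p = 0.0311). Of the 23, 0 in the TGFb table passed the filter.

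In mesenchymal cells 7 of those 23 were over a mean of 1 TPM, and 3 were at least 2-fold lower after immortalisation, against 10.7% of all genes counted. These were Gdf6 (29.9 TPM in the fresh and 3.11 TPM in the immortalised sample), Bmp6 (6.25 and 1.43 TPM) and Inhbb (2.61 and 0.206 TPM), and 0 were higher, against 6.26%. Inhbb was under 1 TPM in the immortalised sample, so it entered the count only through the fresh sample.

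Tgfb1 is secreted in a latent complex, so the transcripts that process, store and release ligands were read beside it. Furin and Pcsk5 cut ligand precursors, Bmp1 is a protease that frees them from matrix, Ltbp proteins and fibrillins anchor latent Tgfb, and Thbs1 and integrins that pair Itgav with Itgb6 or Itgb8 activate it. Of 18 such genes 12 were tested in the BMP table. With BMP2 10 rose and 0 fell, against 36.8% and 38.4% of all genes. With BMP7 9 rose and 0 fell, against 19.2% and 13.2%, and with BMP5 9 rose and 1 fell, against 16.5% and 9.87%. With BMP4 5 rose and 3 fell, close to the shares of all genes (33.7% and 31.4%), and with BMP3 0 were called. The gene nearest to a fall with BMP2 and BMP7 was Pcsk5. With BMP2 it was called lower at the same total (-0.70, limma adjusted p = 1.26e-05), under quantile normalization (0.00104), with a filter at 50 (0.0498), by edgeR with TMM (edgeR adjusted p = 0.0298) and without BMP2 replicate II (limma adjusted p = 0.0329) or VI (0.0281). With BMP7 it was called lower at the same total (limma adjusted p = 0.0382), under quantile normalization (0.0192) and in a fit of the 2 groups alone (0.0294). With BMP5 Pcsk5 was the gene that fell (-0.41, limma adjusted p = 0.0159), which was lost without BMP5 replicate III (0.0948). The 12 genes' median log2 change was 2.52 with BMP2, 1.74 with BMP7, 1.76 with BMP5, 0.33 with BMP4 and 0.04 with BMP3. With Tgfb, 8 were tested, of which Ltbp4 passed the filter only through the Tgfb samples. It stood at 0.119, 0.149 and 0.0753 TPM in controls and 11.7, 7.71 and 10.7 TPM with Tgfb. Of the other 7, 6 rose and 0 fell, with a median of 3.01, against 27.4% and 29.3% of all genes. Among these, Thbs1 changed by 5.56 (SE 0.11, limma adjusted p = 1.71e-06) and Itgav by 3.27 (SE 0.19, 3.12e-05). At the same total, 3 in place of 5 rose with BMP4, since Pcsk6 (0.22, limma adjusted p = 0.276) and Itgb6 (0.20, limma adjusted p = 0.314) lost the call, as Itgb6 did without BMP4 replicate VI (limma adjusted p = 0.0513).

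Thbs1, Ltbp4 and Itgb8 were called lower with BMP4 and higher with BMP2, BMP5 and BMP7, though the BMP4 call of Ltbp4 was lost under several settings. Thbs1 was 1620, 390, 742 and 294 normalized counts in controls, 14400, 14400, 17900 and 14000 with BMP2, and 258, 127 and 89.8 with BMP4. The BMP2 samples lay far above and the BMP4 samples below all controls. Its log2 change was 4.63 with BMP2 (SE 0.45, limma adjusted p = 2.76e-08), 3.42 with BMP5 (limma adjusted p = 4.57e-05), 3.32 with BMP7 (limma adjusted p = 4.48e-05) and -2.08 with BMP4 (limma adjusted p = 0.00109). Ltbp4 rose from 13.3, 12.4, 10.6 and 9.91 in controls to 480, 716, 989 and 678 with BMP2, a change of 5.80 (SE 0.32, limma adjusted p = 1.30e-11). Itgav changed by 3.91 with BMP2 (SE 0.16, limma adjusted p = 5.00e-13). Ltbp4 was 4.74, 4.56 and 7.18 with BMP4 (-0.97, limma adjusted p = 0.0217), 3.42 higher on the log2 scale with BMP5 (limma adjusted p = 1.38e-06) and 3.77 higher with BMP7 (limma adjusted p = 3.19e-07). Its BMP4 call was lost without BMP4 replicate II (-0.89, limma adjusted p = 0.0673) or III (-0.86, 0.0737), with a pseudocount of 5 (0.0834), under quantile normalization (0.0884) and in the count tests (edgeR adjusted p = 0.101 with TMM and 0.130 with the authors' size factors, DESeq2 adjusted p = 0.0759). Itgb8 changed by 3.25 with BMP5 (limma adjusted p = 0.000170), 2.88 with BMP7 (limma adjusted p = 0.000400) and -1.83 with BMP4 (limma adjusted p = 0.00555), where the BMP4 samples overlapped the controls. Pcsk5 rose with BMP4, by 1.78 (SE 0.12, limma adjusted p = 6.10e-10), while its values with BMP2 (-0.24, limma adjusted p = 0.0528) and BMP7 (-0.26, limma adjusted p = 0.0998) did not pass.

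**Figure D4:**
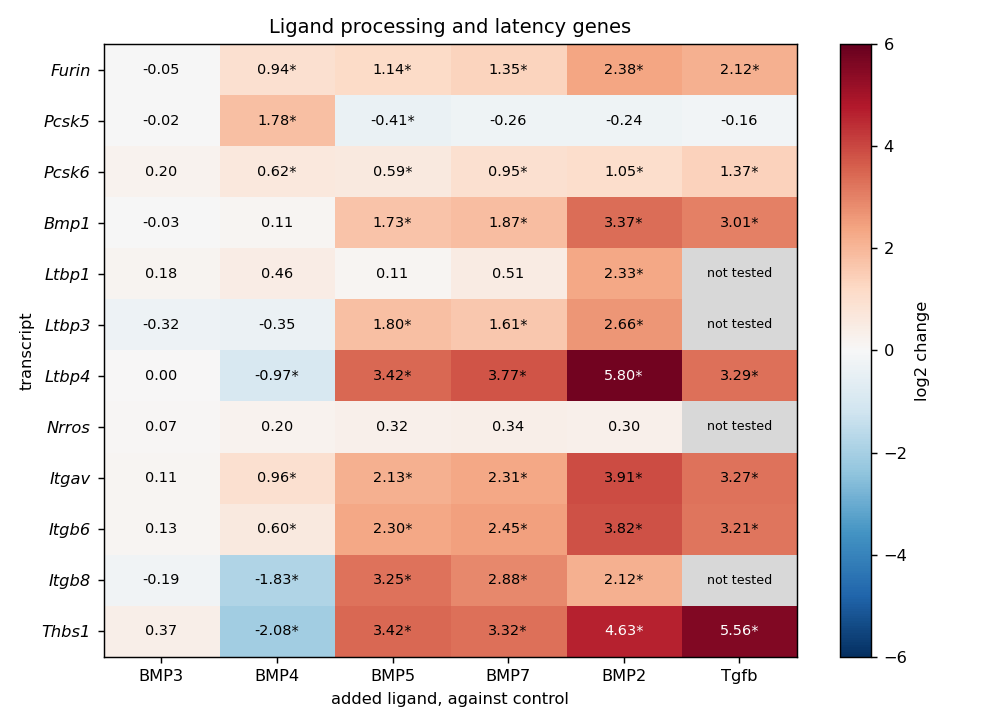
Log2 change against control of the 12 processing and latency transcripts tested in the BMP table, by added ligand; an asterisk marks an adjusted p under 0.05, and grey cells were below the filter in the TGFb table. Thbs1, Ltbp4 and Itgb8 are positive with BMP5, BMP7 and BMP2 and negative with BMP4.

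Direct contrasts were read for the same 12 genes. Between BMP2 and BMP4, 9 were higher and 1 lower with BMP2, where 33.4% of all genes were called each way, led by Ltbp4 (6.76, limma adjusted p = 1.01e-11), Thbs1 (6.71, limma adjusted p = 8.56e-10) and Itgb8 (3.94, limma adjusted p = 2.72e-06), and Pcsk5 was the lower one (-2.03, limma adjusted p = 4.27e-11). Between BMP4 and BMP7, 1 was higher and 8 lower with BMP4, against 28.4% and 31.4%, led by Thbs1 (-5.40, limma adjusted p = 8.46e-08), Ltbp4 (-4.74, limma adjusted p = 7.17e-09) and Itgb8 (-4.70, limma adjusted p = 1.16e-06). Between BMP2 and BMP7, 8 were higher and 0 lower with BMP2, against 31.4% each way, led by Ltbp4 (2.02, limma adjusted p = 6.38e-05), Ltbp1 (1.82, limma adjusted p = 0.000231) and Itgav (1.60, limma adjusted p = 3.68e-07). In mesenchymal cells 14 of the 18 were over a mean of 1 TPM, of which 5 were at least 2-fold higher and 6 at least 2-fold lower after immortalisation, against 6.26% and 10.7% of all genes counted. Nrros, among the 5, stood at 0.490 TPM in the fresh and 2.05 TPM in the immortalised sample. Nrros and Fbn2, which was among the 6, entered the count only through the sample where they were higher. Thbs1 stood at 235 TPM in the fresh and 1121 TPM in the immortalised sample, Ltbp4 at 53.5 and 5.15 TPM, Lrrc32, which tethers latent Tgfb to the cell surface, at 168 and 31.9 TPM, and Fbn2 at 35.8 and 0.167 TPM.

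For each of the 8 ligands, the 2 genes with the most similar 5 log2 changes were found among genes with a mean of at least 50 normalized counts, by the root mean square difference over the 5 added BMPs. For Bmp2 they were Ccndbp1 (0.0822) and Myl6 (0.0841), and for Bmp8b Ly6a (0.0922) and Cblb (0.177). For Tgfb1 they were Tubb6 (0.191) and Slc12a4 (0.297), for Bmp4 Fam167a (0.212) and Abtb2 (0.229), and for Inhba Ddah2 (0.184) and Tpbg (0.247). For Bmp7 they were Hpd (0.259) and Asrgl1 (0.339), and for Gdf15 Olfr613 (0.234) and AC139131.1 (0.238). Bmp3 had no gene as close: Slc14a1 differed by 0.637 and Sfrp5 by 1.29. The list is a description of these samples, and 7 to 10 of the 16 pairs were the same under 5 other settings. Bmp4 and Inhba are in it only because the BMP2 samples carried them past the filter. Their low values make the log2 changes, and so the likeness, depend on the settings. For Bmp4 with BMP2 the log2 change ran from 3.41 to 8.16 over the alternatives.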

How the data were processed

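Messenger RNA was sequenced in 28 samples (KAPA mRNA kit, 75 nt single-end reads, per the labels' protocols). The submitters' processing notes name Trim Galore, Salmon, DESeq2 and GRCm39, with no role or order. For the BMP organoids the authors deposited a signal that behaves as gene counts over a size factor of each library, judged from the values alone: of 180236 values at or below 20 reads, 100% were whole multiples of 1 read within 0.1 read. Values above 999 reads (21.0% of those above 0) are known to 3 digits. The authors' other tables hold TPM, since each deposited column summed to 1000000. Whether counting used strand is not given in the sources used here. Samples were grouped by their labels, and 0 columns were left unmapped. The labels mention more than 1 sequencing run without assigning samples.

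Tests used limma 3.58.1 (R 4.3.3, intensity trend, two-sided) on log2(value + 1), so a fold change of a low gene is understated. Genes needed a mean of 10 normalized counts (14746 of 29413) or 1 TPM (12959 of 55416). The 6 groups of the BMP table entered 1 fit, and p-values were Benjamini-Hochberg adjusted over all genes tested. A group with no sample above 3 reads was set to that floor, which covers counting error only, since reads carry no molecular identifiers. As alternatives, edgeR 4.0.16 and DESeq2 1.42.0 were run on the recovered reads (BMP2 against control: 11110 genes called by edgeR with TMM, 11171 by DESeq2, 11077 by limma). Other alternatives changed the pseudocount, filter, scaling and groups fitted, blocked by replicate number, or left out each sample. Scripts were tested on simulated data. Replicate numbers come from the titles, and deviations from group means of same-numbered samples correlated at over 0.1 in every pair of control with BMP3 (0.281 to 0.553), BMP4 (0.190 to 0.225), BMP5 (0.158 to 0.262) and BMP7 (0.236 to 0.294), not of control with BMP2 (0.0182 to 0.421) or in the TGFb table (0.00405 to 0.0696). The text names every ligand of the set, of the 2 further lists the genes with the largest changes past the threshold, and the 2 most similar genes per ligand; Furin, Pdgfra and the other markers named with them were chosen after their values were seen. The ligands and lists were chosen with earlier results of these data known.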

Additional observations from a re-analysis of the deposited data

Results flagged for a closer look

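Of 20 ligand and group combinations with 4 samples, 1 stood out by Dixon's criterion, where chance gives about 1 in 20. It was Bmp4 in the untreated controls of the BMP table, where replicate III stood at 0.830 normalized counts and the other 3 samples at 0. This value is 1 read.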

How the results depend on the processing

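Of 46 log2 changes and differences called for single ligands, recomputed 774 times, 754 values stayed past the threshold in the same direction, 20 lost the call and 0 changed sign. Of the 20, 8 were Inhba with BMP5 and 5 were Inhba between BMP4 and BMP7. Of 24 that were not called, recomputed 413 times, 27 values passed and 14 changed sign. The called values include those of ligands that passed the filter only through the group where they were highest. These were Bmp4 and Inhba in the BMP table and Bmp3, Bmp4 and Bmp8b in the TGFb table. All recomputed values reuse the same samples, so they are not independent support. The count of ligands that differed between BMP5 and BMP7 was 1 in place of 0 with a pseudocount of 5, with edgeR under TMM or the authors' size factors and with DESeq2, and 0 to 1 over the left-out samples (1 without BMP5 replicate III). A filter at a mean of 50 normalized counts left 5 ligands to test, so that BMP2 changed 5, BMP5 3, and the differences were 3 between BMP2 and BMP7, 4 between BMP4 and BMP7 and 5 in the F-test. Chosen after seeing the data, a count over the ligands that passed the filter without the group where they were highest gave 3 changed by BMP5 in place of 5 and 3 by Tgfb in place of 6. A filter at 10 TPM left 1 ligand, which Tgfb changed. The changes of sign were all in values not called. At the same total they were Bmp8b with BMP4 (-0.16) and between BMP2 and BMP7 (-0.16), and Gdf15 between BMP2 and BMP4 (-0.000491). Over the left-out samples, Gdf15 between BMP2 and BMP4 ran from -0.24 to 0.25, Bmp4 with BMP4 from -0.22 to 0.38 and Inhba with BMP4 from -1.25 to 0.11. Between BMP5 and BMP7, Bmp4 ran from -0.76 to 0.47, Tgfb1 from -0.64 to 0.068, Bmp8b from -0.015 to 0.28 and Bmp2 from -0.043 to 0.31. The cause of these shifts was not tested. With the replicate number as a block, the paired fit changed 1 call among the 10 ligands, Gdf15 with BMP7 (-0.74), and no other. Outside the 10, it added calls of Bmp8a with BMP5 (0.87, limma adjusted p = 0.0311) and between BMP4 and BMP7 (-0.81, 0.0310). Of the processing genes it added Ltbp1 with BMP4 (0.0420) and BMP7 (0.0457), Pcsk6 between BMP2 and BMP4 (0.0389) and Itgb8 between BMP2 and BMP7 (0.0173). Leaving out a sample kept at least 2 in each group. TPM keeps no depth, which limits what can be said of ligands near 0 in those tables.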
